A study of Homo sapiens with 12 samples.

Results

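The CCN genes encode 6 secreted matricellular proteins, and their transcripts are described here in MDA-MB-231 cells, a mesenchymal triple-negative breast cancer line, after siRNA knockdown of NELFA, of YAP1 or of both. The members were found by symbol among the 58051 genes listed, and all 6 were present: CTGF (CCN2), CYR61 (CCN1), NOV (CCN3), WISP1 (CCN4), WISP2 (CCN5) and WISP3 (CCN6), where the names in brackets are the current ones. Pooled siRNAs were transfected at 50 to 100 nM in 4 groups of 3 libraries each. siControl cells received a non-targeting pool, siNELFA cells a pool against NELFA, siYAP cells a pool against YAP1, and siNELFA+siYAP cells both targeting pools (the double knockdown). The labels name RNA extraction at both 48 h and 72 h without tying a library to either, whereas the methods name 72 h for the sequenced knockdown. All libraries came from 1 cell line. The methods describe the replicates as biologically independent, the labels do not say that they were separate cultures, and the p-values measure the spread between these libraries.

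CCN proteins are released into the extracellular matrix, where they bind integrins, heparan sulphate proteoglycans and growth factors, and thereby tune adhesion, migration and fibrosis. CTGF and CYR61 are immediate early genes and textbook targets of YAP, a coactivator that is brought to DNA by the TEAD transcription factors. NELFA is a subunit of the negative elongation factor, which holds RNA polymerase II shortly downstream of the start of many genes. The question put to these libraries was whether loss of NELFA raises YAP target transcripts, and whether it still does so when YAP1 is depleted as well.

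CTGF lies on chromosome 6 (GRCh38, chr6:131948176-131951372, minus strand) and CYR61 on chromosome 1 (chr1:85580761-85584589, plus strand), each with 5 exons in its canonical transcript. WISP3 lies on the other strand of chromosome 6 (chr6:112054075-112069686) and WISP2 on chromosome 20 (chr20:44714844-44728509, plus strand). Upstream sequence (250 bases before the annotated start, RefSeq, GRCh38.p14) was matched for 2 of the 6 members, CTGF and WISP3. They were the only members with a window in the source used, and CYR61 had none. CTGF is a well expressed YAP target, and WISP3 was barely read in these cells. Capitals mark the TEAD core motif GGAATG, which was searched on both strands (CATTCC on the other), and both windows run 5′ to 3′ on the strand of the gene.
CTGF, chr6:131951373-131951622, minus strand: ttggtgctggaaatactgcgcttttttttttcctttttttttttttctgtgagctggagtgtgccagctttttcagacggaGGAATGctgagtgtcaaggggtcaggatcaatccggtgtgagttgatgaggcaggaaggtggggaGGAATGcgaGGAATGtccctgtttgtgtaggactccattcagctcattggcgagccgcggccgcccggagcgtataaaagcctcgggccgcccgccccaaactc
WISP3, chr6:112053854-112054103, plus strand: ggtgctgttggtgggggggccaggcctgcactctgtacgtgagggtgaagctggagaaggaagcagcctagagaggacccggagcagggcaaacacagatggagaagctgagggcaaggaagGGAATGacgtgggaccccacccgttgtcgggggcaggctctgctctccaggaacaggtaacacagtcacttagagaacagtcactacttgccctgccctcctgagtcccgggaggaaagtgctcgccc
The CTGF window holds 3 matches, 169 to 164, 104 to 99 and 95 to 90 bases before the start. Among 35116 such upstream windows, 11.9% hold at least 1 match, 0.94% at least 2 and 0.0826% at least 3. The window of WISP3 holds 1 match, 128 to 123 bases before the start. A TATAAA sequence, present in 6.8% of the windows, lies 32 to 27 bases before the CTGF start. The AP-1 sequence TGACTCA, searched on both strands and held by 4.2% of the windows, was not found in the CTGF window. These are matches of letters, not mapped binding sites.

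Library totals ran from 9608145 to 18803104 counts. Relative to its siControl mean, NELFA stood at 32.2% with siNELFA and at 26.1% with both siRNAs, and YAP1 stood at 15.6% with siYAP and at 15.2% with both (means of 3 libraries, in counts per 1000000 counts after TMM normalization, CPM below). Of the markers of the line, VIM (749.7 to 1181 transcripts per 1000000, TPM) and CD44 (574.8 to 1170) were high in all 12 libraries, and of 6 markers that are low or absent in it, PGR (at most 0.0687) and ESR1 (at most 2.53) were near 0, while ERBB2 (15.7 to 29.4), EPCAM (4.34 to 19.2) and GATA3 (1.64 to 4.36) were read in all libraries. The replicate 1 libraries of siControl, siNELFA and siYAP stood apart from replicates 2 and 3 of the same groups. Over these 9 libraries with group as a term, 46.4% of 18193 genes differed between replicate 1 and the others at an adjusted p under 0.05 (edgeR). CDH1, the epithelial cadherin, had the largest log2 difference among genes higher in replicate 1, at 7.92, 11.97 and 7.06 TPM in these replicate 1 libraries and at most 1.58 TPM in the others. The double knockdown libraries bear the titles replicate 1 to 3, but are named as indices 1 to 3 of a library numbered 1. They did not share the offset of replicate 1, and 2 of them were close to each other. A chi-square test of the counts of replicates 1 and 3 gave 2.86 per degree of freedom over 12970 genes, against 14.0 or more for every other pair of libraries within a group. Sampling noise gives 1 for independent reads and about 2 if both reads of each pair were counted, and most low counts in these files were even. Replicates 1 and 3 may therefore be repeats of one sample, which was not tested. They were counted as separate libraries, so the SD, SE and p-values of the double knockdown may be too small. The names would also allow that all 3 double knockdown libraries came from 1 experiment, which was not tested. A difference between experiments cannot be told apart from the knockdown in comparisons with this group. The same holds for the test of whether the 2 effects add. Because of the offset, results are also given without replicate 1 of siControl, siNELFA and siYAP, a choice made after the data were seen.

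CYR61 and CTGF made up nearly all CCN transcripts. On the TPM scale, which corrects for transcript length and so allows genes to be compared, CYR61 held 79.1% to 92.2% of the summed level of the family in a library, CTGF 6.45% to 20.7%, and the other four members together 0.258% to 1.40%. In siControl, CYR61 stood at 458.1 ± 34.7 TPM (SD, n = 3) and CTGF at 69.2 ± 9.62 TPM. Ranked by TPM among 19960 protein-coding genes, CYR61 was 147th to 162nd and CTGF 1364th to 1886th in the siControl libraries. In siNELFA they ranked 42nd to 108th and 435th to 618th, and in siYAP 166th to 254th and 2816th to 4188th. In the double knockdown the ranks were 138th to 150th for CYR61 and 1214th to 1295th for CTGF, overlapping the siControl ranks of CYR61 but lying above those of CTGF. In bulk RNA, a change in the share of cells that express a gene and a change in the RNA per cell cannot be told apart.

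CTGF, a matricellular protein and driver of fibrosis, differed in level between all 4 groups without overlap of libraries. In siControl it was measured at 107.8, 134.4 and 124.4 CPM in replicates 1 to 3. In siNELFA the values were 264.1, 280.1 and 350.7 CPM. Every siNELFA library thus lay above every siControl library, the lowest by a wide margin. In siYAP CTGF was at 53.28, 77.66 and 65.07 CPM, below all libraries of the other groups. In the double knockdown it was at 152.5, 150.4 and 146.3 CPM, above every siControl library and below every siNELFA library. The order of the group means was therefore siNELFA (298.3 ± 46.1, SD, n = 3), double knockdown (149.7 ± 3.18), siControl (122.2 ± 13.5) and siYAP (65.3 ± 12.2).

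CYR61, an adhesion ligand with angiogenic activity, followed the same order of means, but its libraries spread more. In siControl it was at 831.1, 729.9 and 784.8 CPM. In siNELFA it was at 2065, 1067 and 1315 CPM, so that replicate 1 was the highest library by far. In siYAP it was at 715.8, 473.2 and 526.9 CPM, with replicate 1 again the highest and close to the lowest siControl library. The double knockdown gave 792.9, 851.3 and 790.2 CPM, within or just above the range of siControl. Group means were 1482 ± 520 CPM in siNELFA (SD, n = 3), 811.5 ± 34.5 in the double knockdown, 781.9 ± 50.6 in siControl and 572 ± 127 in siYAP. The double knockdown and siControl, neighbours in this order, overlapped.

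**Figure D1:**
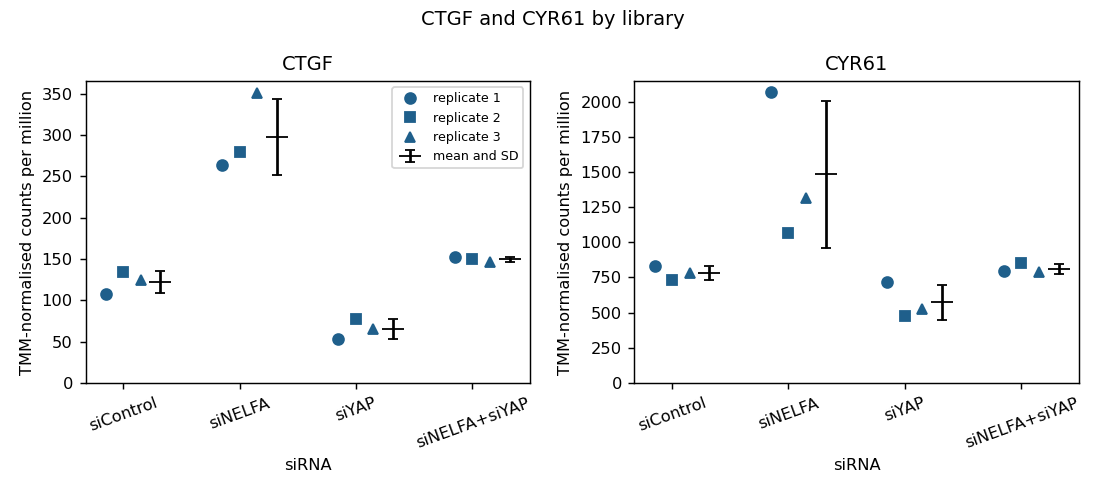
CTGF (left) and CYR61 (right) in TMM-normalised CPM (vertical axis, from 0) for the 12 libraries by siRNA group; symbols are replicates 1, 2 and 3, and the bar beside them is the mean with its SD. CTGF in the double knockdown (146.3 to 152.5) lies between siControl and siNELFA, and CYR61 in siNELFA replicate 1 (2065) lies far above the other libraries.

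NELFA knockdown alone was compared with siControl by edgeR on the 6 libraries of both groups. The log2 fold change of CTGF was 1.30 (SE 0.18, 95% interval 0.88 to 1.71), or 244.1% of the siControl mean, with an unadjusted p of 0.000132 and an adjusted p of 0.468. For CYR61 it was 0.93 (SE 0.26, 95% interval 0.33 to 1.54), or 189.6% of siControl, with an unadjusted p of 0.00801 and an adjusted p of 1.00. So 0 of the 4 members tested (CTGF, CYR61, NOV, WISP2) passed the adjusted threshold of 0.05, where 0.00564% of 17727 genes did. At an unadjusted p under 0.05 both CTGF and CYR61 were higher, against a background of 2.25% of genes higher at that level, and DESeq2 called 1 member, CTGF, with 0.0728% of genes. Libraries of both genes did not overlap between the groups, with siNELFA higher, which held for 6.04% of the genes tested. In siControl, siNELFA and siYAP equally numbered libraries deviated alike, but pairing beyond the replicate 1 offset was not tested. With the number as a block, both transcripts rose in siNELFA. CTGF then had a log2 fold change of 1.29 (SE 0.11, adjusted p = 7.14e-05) and CYR61 of 0.87 (SE 0.12, adjusted p = 0.00238), while 5.21% of all genes passed.

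Within each replicate number, CTGF in siNELFA exceeded CTGF in siControl by 1.29, 1.06 and 1.50 on the log2 CPM scale in replicates 1, 2 and 3. The same differences for CYR61 were 1.31, 0.55 and 0.74. The CTGF difference was of similar size in all replicates, whereas that of CYR61 was largest in replicate 1. Without the replicate 1 libraries, the log2 fold change of CTGF was 1.30 (SE 0.13, adjusted p = 0.0107) and that of CYR61 was 0.67 (SE 0.12, adjusted p = 0.0813), where 0.0996% of genes passed.

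With YAP knockdown alone, both transcripts lay below siControl in every library. CTGF was at 53.5% of the siControl mean in siYAP, with a log2 fold change of -0.89 (SE 0.20, 95% interval -1.35 to -0.42, adjusted p = 1.00). CYR61 was at 73.1%, a log2 fold change of -0.44 (SE 0.20, 95% interval -0.91 to 0.03, adjusted p = 1.00). None of the 3 members tested passed by edgeR, where 0.00578% of 17296 genes did, and that gene was YAP1 itself. At an unadjusted p under 0.05 by edgeR, CTGF was lower and CYR61 was not called, against a background of 0.549% of genes lower. DESeq2 called 0 members and 0.00314% of genes. Both genes had siYAP libraries below all siControl libraries, as did 4.2% of the genes tested. With the replicate block neither passed, at adjusted p = 0.104 for CTGF and 0.390 for CYR61, where 0.0173% of genes did.

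The siYAP differences within replicate numbers were -1.02, -0.79 and -0.93 for CTGF and -0.22, -0.63 and -0.57 for CYR61 on the log2 CPM scale. Replicate 1 therefore gave CYR61 its largest difference under siNELFA and its smallest under siYAP. ANKRD1, another YAP target measured in the study, was at 370.2 ± 51.0 CPM in siControl (SD, n = 3) and 223.1 ± 62.7 in siYAP. In siNELFA it was at 357.8 ± 50.2 CPM, within the siControl spread, and in the double knockdown at 165.2 ± 1.84 CPM.

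In the double knockdown, CTGF was at 122.5% of the siControl mean and CYR61 at 103.8%. For CTGF the log2 fold change against siControl was 0.29 (SE 0.11, 95% interval 0.03 to 0.56, unadjusted p = 0.0357, adjusted p = 0.239). For CYR61 it was 0.05 (SE 0.10, 95% interval -0.19 to 0.29, adjusted p = 0.820). By edgeR 0 of the 3 members tested passed the adjusted threshold, 1 was under 0.05 unadjusted, and DESeq2 called 0 members and 5.88% of genes. Of 17533 genes, 0.428% passed the adjusted threshold and 8.27% were higher at an unadjusted p under 0.05. The CTGF libraries lay above those of siControl without overlap, as did 15.1% of the genes tested, so that this separation was common in the comparison. Without siControl replicate 1, the log2 fold change of CTGF was 0.22 (adjusted p = 0.0202), and 24.4% of all genes then passed. Without double knockdown replicate 1 or 3, the log2 fold change was 0.29 or 0.31 for CTGF (edgeR adjusted p = 0.570 or 0.513) and 0.075 in both cases for CYR61.

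Set against each single knockdown, the double knockdown lay between them. Against siNELFA, the log2 fold change was -0.99 for CTGF (SE 0.13, 95% interval -1.29 to -0.69, adjusted p = 0.256) and -0.87 for CYR61 (SE 0.23, 95% interval -1.41 to -0.33, adjusted p = 0.735). No member passed, as against 0.00573% of 17463 genes, both were under 0.05 unadjusted, where 3.93% of genes were lower, and DESeq2 called 1, CTGF, with 0.286% of genes. Without siNELFA replicate 1, CTGF fell by 1.07 on the log2 scale (adjusted p = 0.000117) and CYR61 fell by 0.54 (adjusted p = 0.00543), where 1.25% of genes passed. Libraries of both genes lay below those of siNELFA, as did 7.89% of genes.

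Against siYAP, the log2 fold change was 1.19 for CTGF (SE 0.15, 95% interval 0.84 to 1.53, adjusted p = 0.0717) and 0.49 for CYR61 (SE 0.17, 95% interval 0.10 to 0.88, adjusted p = 0.254). Again 0 members passed by edgeR, where 0.035% of 17167 genes did. Both were under 0.05 unadjusted, where 6.66% of genes were higher, and DESeq2 called 1, CTGF, with 3.32% of genes. Libraries of both genes lay above those of siYAP, as did 13.9% of the genes tested. Without siYAP replicate 1, CTGF rose by 1.07 (adjusted p = 2.60e-05) and CYR61 by 0.70 (adjusted p = 4.43e-05), while 16.5% of all genes passed. With double knockdown replicate 1 or 3 left out, CTGF was higher by 1.17 or 1.21 (edgeR adjusted p = 0.634 or 0.469). CYR61 was then higher by 0.51 or 0.52 (adjusted p = 0.636 or 0.614). The size of the CTGF difference was thus close to 1 on the log2 scale for NELFA knockdown with or without YAP knockdown, and for YAP knockdown with or without NELFA knockdown. These comparisons share libraries and are set side by side without a test of their likeness.

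**Figure D2:**
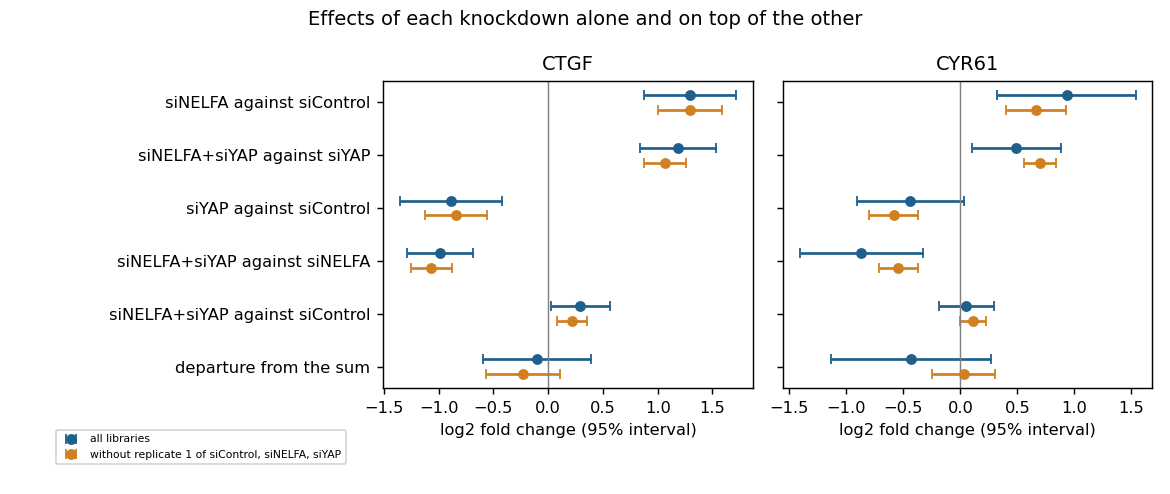
Log2 fold changes (horizontal axis, points) with 95% intervals (bars) of CTGF (left) and CYR61 (right) for 5 comparisons and for the departure of the double knockdown from the sum of the single effects; blue uses all libraries, orange leaves out replicate 1 of siControl, siNELFA and siYAP. CTGF gave 1.30 for siNELFA against siControl and 1.19 for the double knockdown against siYAP, and the intervals of the departure include 0 for both genes.

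Whether the opposing effects add was tested as the departure of the double knockdown from the sum of the single log2 effects, over all 12 libraries. The departure was -0.10 for CTGF (SE 0.23, 95% interval -0.60 to 0.39, unadjusted p = 0.662). For CYR61 it was -0.43 (SE 0.32, 95% interval -1.13 to 0.27, unadjusted p = 0.202). No member passed by edgeR (0 of 4 also unadjusted, and 0 by DESeq2). Of 18525 genes, 0 (0%) passed the adjusted threshold with edgeR, 326 (1.76%) were under 0.05 unadjusted, and DESeq2 called 0. A departure was not detected, and the intervals bound it at 0.60 in size for CTGF and 1.13 for CYR61 on the log2 scale. Without the replicate 1 libraries it was -0.23 (95% interval -0.57 to 0.10) for CTGF and 0.029 (95% interval -0.25 to 0.31) for CYR61.

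The same question was put on the linear scale, as a description. If the fold changes of the single knockdowns multiplied, CTGF would be expected at 130.6, 161.8 and 183.5 CPM from replicates 1, 2 and 3. From the group means of log2 CPM it would be at 157.1 CPM. If instead the differences from siControl added, it would be expected at 209.7, 223.3 and 291.4 CPM, or 241.4 from the group means of CPM. The measured CTGF values, 146.3 to 152.5 CPM, lay inside the range of the products and below every sum.

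For CYR61 the products were 1779, 691.6 and 882.6 CPM, with 1028 from the group means of log2 CPM. The sums were 1950, 810.2 and 1057 CPM, with 1272 from the group means of CPM. The measured values of 790.2 to 851.3 CPM lay between the products of replicates 2 and 3, and the value computed from replicate 1 was far above them. The sums of replicates 1 and 3 also exceeded all measured values, and that of replicate 2 lay within them. As the double knockdown libraries are not paired with these numbers, no single measured library belongs to a given computed value.

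**Figure D3:**
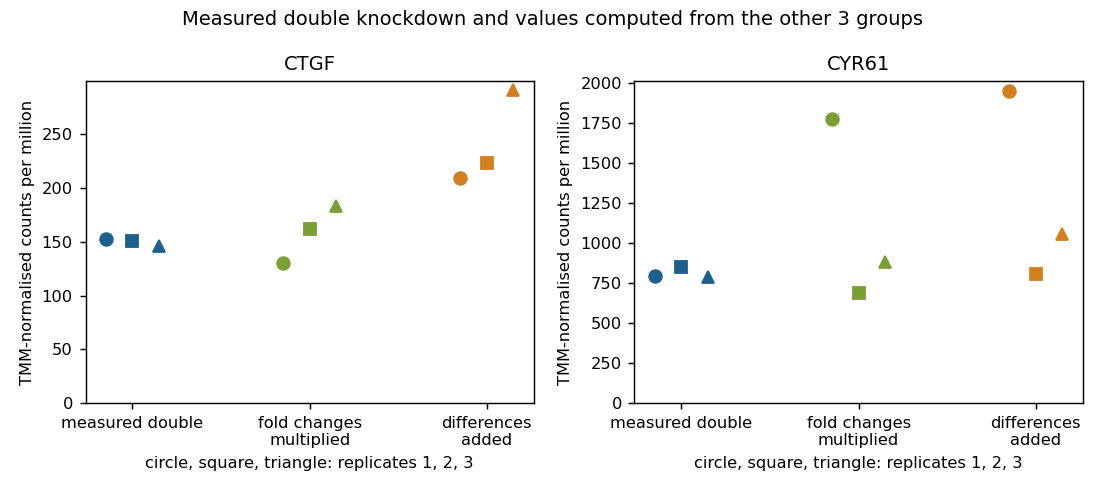
TMM-normalised CPM (vertical axis, from 0) of CTGF (left) and CYR61 (right) measured in the double knockdown (blue) and computed from siControl, siNELFA and siYAP libraries of the same number by multiplying fold changes (green) or adding differences (orange). CTGF measured 146.3 to 152.5, below all 3 sums, and the replicate 1 values computed for CYR61 (1779 and 1950) lie far above the measured ones.

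The balance between the genes was read as the CTGF level per 100 CYR61 within a library, on the TPM scale, which does not depend on scaling between libraries. It was 12.7, 17.8 and 15.1 in siControl. With siNELFA it was 12.4, 24.8 and 26.1, with siYAP 7.00, 15.6 and 11.96, and with both siRNAs 18.7, 16.6 and 17.7. The groups overlapped apart from the double knockdown, whose libraries all lay above those of siYAP. The mean log2 ratio of the counts differed by 0.41 between siNELFA and siControl (exact permutation test, two-sided, p = 0.4, adjusted p = 0.5 over 5 comparisons). It differed by -0.44 between siYAP and siControl (exact p = 0.3, adjusted p = 0.5) and by 0.24 between the double knockdown and siControl (exact p = 0.2, adjusted p = 0.5). Between the double knockdown and siNELFA the difference was -0.17 (exact p = 0.7, adjusted p = 0.7), and between the double knockdown and siYAP it was 0.69 (exact p = 0.1, adjusted p = 0.5). With 3 libraries against 3, this test cannot give a p below 0.1.

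Within replicate numbers the log2 ratio in siNELFA exceeded that in siControl by -0.02, 0.51 and 0.75. In siYAP the differences from siControl were -0.80, -0.17 and -0.36. The fold difference was thus nearly the same for CTGF and CYR61 in siNELFA replicate 1, and larger for CTGF in replicates 2 and 3. The replicate 1 libraries also differed from replicates 2 and 3 of their groups in these genes themselves, by -0.29 for CTGF (SE 0.10, adjusted p = 0.0322) and 0.51 for CYR61 (SE 0.11, adjusted p = 0.00154) on the log2 scale by edgeR, a comparison added after the data were seen. Its part in the ratio was not tested.

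**Figure D4:**
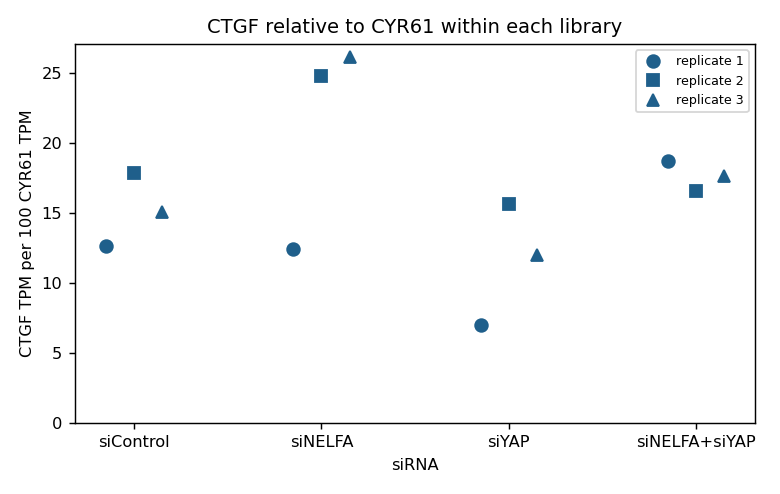
CTGF TPM per 100 CYR61 TPM (vertical axis, from 0) in each of the 12 libraries by siRNA group; symbols are replicates 1, 2 and 3. The ratio runs from 7.00 in siYAP replicate 1 to 26.1 in siNELFA replicate 3, and replicate 1 is the lowest library of siControl, siNELFA and siYAP.

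NOV, which restrains growth in several cell types, was the only other member read in every library. It had 21, 70 and 89 counts in siControl and 28, 42 and 78 with siNELFA. With siYAP it had 28, 54 and 91 counts, and with both siRNAs 59, 46 and 74. On the CPM scale the libraries ran from 2.18 to 5.63, and the groups overlapped in all comparisons. The log2 fold change was -0.25 with siNELFA (SE 0.42, 95% interval -1.23 to 0.74), 0.17 with siYAP (SE 0.41, 95% interval -0.79 to 1.13) and 0.15 in the double knockdown (SE 0.32, 95% interval -0.60 to 0.90), each against siControl. All 3 intervals include 0, so no direction is drawn at this depth. NOV was lower in replicate 1 than in replicates 2 and 3 by a log2 difference of -0.78 (SE 0.28, adjusted p = 0.0340).

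WISP2, a member that lacks the carboxy-terminal domain of the other CCN proteins, was read mainly in the replicate 1 libraries. Its counts in replicates 1, 2 and 3 were 50, 0 and 4 in siControl, 185, 12 and 0 with siNELFA, and 64, 6 and 2 with siYAP. In the double knockdown they were 2, 4 and 2. Replicate 1 thus held most WISP2 reads in each of the first 3 groups, at 5.41, 14.4 and 6.06 CPM, and no other library exceeded 0.697 CPM.

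WISP2 passed the filter on low counts only with the replicate 1 libraries, in the siNELFA comparison with siControl and in the test of additivity. In the siNELFA comparison WISP2 also needed siNELFA replicate 2, with 12 counts. Its log2 fold change in siNELFA was 1.52 (SE 1.97), and -2.31 without siNELFA replicate 1, so no direction is drawn. CDH1 shared the pattern, with 230, 599 and 169 counts in the replicate 1 libraries of siControl, siNELFA and siYAP, 0 to 17 in replicates 2 and 3 of these groups, and 4 to 10 in the double knockdown. The summed level of 6 markers that are low or absent in the line (ESR1, PGR, ERBB2, CDH1, EPCAM, GATA3) ranged from 38.4 to 49.5 TPM in siControl, 27.2 to 46.0 with siNELFA, 32.2 to 57.6 with siYAP and 23.2 to 28.9 with both siRNAs. That of 6 markers of blood, endothelium and fibroblasts (PTPRC, CD3E, PECAM1, VWF, DCN, COL1A1) ranged from 3.96 to 14.8 TPM over all libraries, with CD3E at 0 in all. Their part in the WISP2 result was not tested.

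WISP1 and WISP3 were at the floor of detection. WISP1 had 2 counts in siNELFA replicate 2 and 2 in double knockdown replicate 1, and 0 in the other 10 libraries. WISP3 had 2 counts in each of 5 libraries (siControl replicate 3, siNELFA replicates 1 and 2, double knockdown replicates 1 and 3) and 0 in the other 7. A count of 0 allows up to 3 counts, or 0.160 to 0.312 CPM depending on the library, and these limits cover counting error only. Neither passed the filter on low counts, and a difference between groups was not detectable at this depth. Of the genes annotated on the strand opposite to a member, LINC01013 at CTGF had 0 to 2 counts and KCNK15-AS1 at WISP2 had 0 to 4. Long noncoding RNA genes opposite to NOV were not examined.

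**Figure D5:**
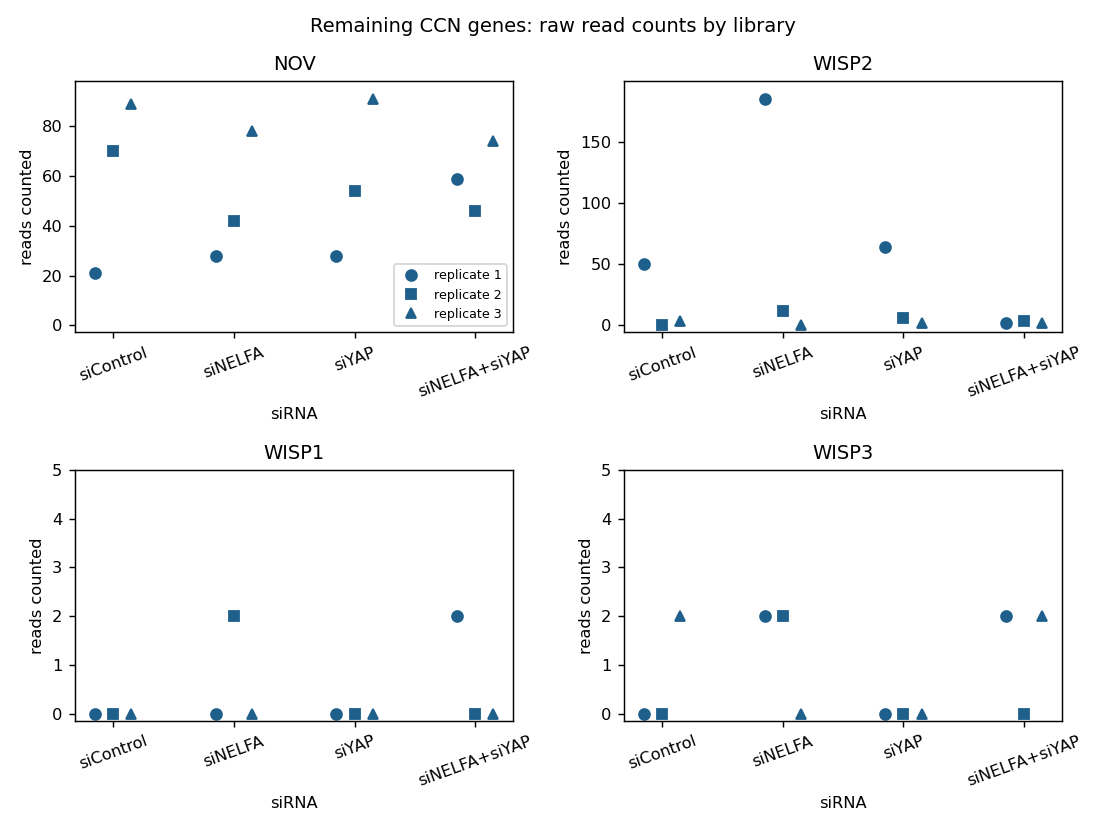
Raw reads counted (vertical axes, each with its own scale) for NOV, WISP2, WISP1 and WISP3 in the 12 libraries by siRNA group; symbols are replicates 1, 2 and 3. NOV runs from 21 to 91 counts with overlapping groups, WISP2 reaches 50, 185 and 64 counts in replicate 1 of siControl, siNELFA and siYAP and at most 12 elsewhere, and WISP1 and WISP3 do not exceed 2.

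Genes whose levels ran most like those of CTGF and CYR61 were sought by Pearson's r of log2 CPM over the 12 libraries, among 12971 genes averaging at least 50 counts. The points share groups, libraries and the replicate 1 offset, so these values only describe likeness. For CTGF they were RP4-621F18.2, a long noncoding RNA (r = 0.969), RHOA, a small GTPase of the actin cytoskeleton (0.958), STT3A, a catalytic subunit of the oligosaccharyltransferase (0.944), CNN2, an actin-binding calponin (0.931), and SNHG16, a noncoding host of small nucleolar RNAs (0.930). For CYR61 they were SCML1 (0.955), PVR, an adhesion molecule (0.948), PTTG1IP (0.946), THBS1, the matricellular protein thrombospondin 1 (0.945), and ITGB2, the integrin beta 2 chain (0.939). CTGF and CYR61 had an r of 0.81 with each other. Several of these genes, among them RHOA, STT3A and ITGB2, overlap the span of other annotated genes on the same strand. Exons were not compared, and whether shared reads affected the counts was not tested.

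The sizes of the differences varied among these genes. RHOA, at 488.3 ± 10.2 CPM in siControl (SD, n = 3), was at 539.4 ± 12.3 with siNELFA, 442.8 ± 19.3 with siYAP and 484.3 ± 2.18 with both siRNAs, a far narrower span than that of CTGF. THBS1 was at 1565 ± 313 CPM in siControl, 2765 ± 1033 with siNELFA, 1182 ± 516 with siYAP and 1349 ± 24.0 with both siRNAs, with a wide spread in the single knockdowns, as for CYR61.

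RP4-621F18.2, first in likeness to CTGF, lies next to CYR61. It is annotated on the minus strand at chr1:85482281-85578250, and 2510 bases separate it from the start of CYR61. Its span overlaps that of DDAH1, a dimethylarginine hydrolase gene on the same strand (chr1:85318481-85578363). Exons were not compared, and whether reads of DDAH1 were counted to RP4-621F18.2 was not tested. Its libraries were at 16.7, 25.8 and 23.6 CPM in siControl, 34.0, 36.6 and 50.6 with siNELFA, 8.23, 11.4 and 12.7 with siYAP, and 29.3, 24.4 and 24.0 with both siRNAs. All siNELFA libraries lay above those of siControl, as for 6.04% of genes. All siYAP libraries lay below them, as for 4.2% of genes, and the double knockdown overlapped siControl. The gene was picked for its likeness to CTGF in these libraries, so this order follows from the choice and only describes it. The log2 fold change was 0.88 in siNELFA (SE 0.25, adjusted p = 1.00, and adjusted p = 0.00790 with the replicate block) and -1.02 in siYAP (SE 0.27, adjusted p = 1.00, and 0.221 with the block). With the block, 5.21% of all genes passed in siNELFA and 0.0173% in siYAP.

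Despite its place beside CYR61, the r of RP4-621F18.2 was 0.726 with CYR61 and 0.969 with CTGF, which lies on another chromosome. DDAH1, described after its values were seen, had an r of 0.938 with CYR61 and 0.730 with CTGF. It was at 185.3 ± 39.4 CPM in siControl (SD, n = 3), 256.0 ± 45.0 with siNELFA, 145.0 ± 23.8 with siYAP and 171.0 ± 4.94 with both siRNAs. Its log2 fold change in siNELFA was 0.47 (SE 0.22, adjusted p = 1.00), and 0.48 with the replicate block (adjusted p = 0.0137), where 5.21% of all genes passed.

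Of 29 regulators of CCN transcription (the YAP, TEAD, SRF, SMAD, TGF-beta, AP-1 and related genes), all were tested. By edgeR 0 passed in siNELFA against siControl (3 unadjusted, where 4.46% of all genes were), and the median log2 fold change was 0.09, against a median near 0 over all genes. With the replicate block 2 rose and 2 fell, beside 5.21% of all genes that passed. JUNB, an AP-1 subunit, rose by 0.87 (adjusted p = 0.00541) and TGFB2, a TGF-beta ligand that induces CTGF, by 0.54 (adjusted p = 0.0134). TEAD1, a partner of YAP, fell by 0.51 (adjusted p = 0.00790) and HIF1A, the hypoxia factor, by 0.46 (adjusted p = 0.0325). In siYAP only YAP1 passed, where 0.00578% of all genes did. With the block TGFB2 also fell, by 1.18 (adjusted p = 0.0185), where 0.0173% of all genes passed. TGFB2 thus passed in both directions with the block, whereas CTGF did not pass in siYAP (edgeR with the block, adjusted p = 0.104). A link between the genes was not tested. In the double knockdown YAP1 fell by 2.72 (adjusted p = 0.00118) and TEAD1 by 0.88 (adjusted p = 0.0319) against siControl, and no regulator passed with a higher level, where 0.428% of all genes passed.

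Among 18 receptors of CCN proteins, 15 were tested in siNELFA. By edgeR 0 passed (2 unadjusted, beside 4.46% of all genes), with 13 higher, 2 lower and a median log2 fold change of 0.29. With the replicate block 4 rose and 1 fell, where 5.21% of all genes passed. SDC4, the proteoglycan syndecan 4, rose by 1.07 (adjusted p = 8.33e-05), ITGB2 by 1.21 (adjusted p = 0.00255), the integrin chain ITGB3 by 0.65 (adjusted p = 0.0129) and ITGA5, the alpha chain of the fibronectin receptor, by 0.56 (adjusted p = 0.00702). ITGA2, a collagen receptor chain, fell by 0.52 (adjusted p = 0.0206) and was chosen outside the naming rule after its value was seen. In siYAP 0 of 15 passed by edgeR, 0 unadjusted (1.3% of all genes were) and 0 with the block. In the double knockdown SDC4 rose by 1.35 against siControl (adjusted p = 0.0199), the only one of 16 tested to pass, where 0.428% of all genes did.

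Of 21 ligands and proteases that bind or cut CCN proteins, 11 were tested in siNELFA and 10 in the other comparisons with siControl. By edgeR 0 passed in siNELFA, siYAP or the double knockdown (unadjusted 0, 0 and 5, the last beside 18.5% of all genes). The median log2 fold changes were -0.07, 0.25 and 0.27 in turn, while the medians over all genes were near 0. With the replicate block the membrane protease MMP14 rose by 0.45 (adjusted p = 0.0104) and FN1, fibronectin, fell by 0.46 (adjusted p = 0.0115) in siNELFA, which is 2 of 11 tested beside 5.21% of all genes. Comparisons with siControl share its 3 libraries.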

How the data were processed

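The authors sequenced 12 stranded libraries of MDA-MB-231 RNA depleted of ribosomal RNA, mapped the reads by STAR (GRCh38, Ensembl 87 genes) and assigned them to genes by featureCounts. The deposited counts are these whole reads, not normalized. The options of the counting step are not given in the sources used here, and 73.3% to 76.4% of counts from 1 to 99 were even in each library. The deposited TPM values are estimates by the authors, scaled to one total per library. A table of 12 FPKM columns was left out, as its columns turn into the TPM when rescaled.

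Counts were tested by edgeR 4.0.16 in R 4.3.3 (quasi-likelihood test, TMM factors, filterByExpr with a minimum count of 10, minimum total of 15 and minimum proportion of 70%), with Benjamini-Hochberg adjustment over all genes tested and a threshold of 0.05. Pairwise fits took the 6 libraries compared, and the additivity contrast took all 12. Ratios were tested by an exact permutation test. CPM are TMM-normalised counts per 1000000 counts. The standard error is the size of the log2 fold change divided by the square root of F. The steps were first tested on simulated data. The alternatives were DESeq2 1.42.0, RLE factors, genes with at least 1 count, limma 3.58.1 on log2(TPM + 1) and log2(TPM + 0.1), a single fit of all 12 libraries, a block for the replicate number, and omission of each library in turn.

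Whether the replicate numbers of the labels pair libraries was checked on 12971 genes with a mean of 50 counts or more. For equally numbered libraries, the correlation across genes of their deviations from the group means was 0.658 to 0.892 within siControl, siNELFA and siYAP. It was -0.0506 to 0.0311 with the double knockdown. The double knockdown thus shared no such pattern with the first 3 groups. Libraries of unlike number were not compared, and the offset of replicate 1 by itself can make these values high. Pairing of the first 3 groups beyond that offset was therefore not tested.

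The members and lists were chosen with earlier results of these data known. Named are the 6 members, the targeted genes, ANKRD1, the 5 genes most like CTGF and CYR61 each, and up to 4 genes per list that passed in the fit without or with the block. DDAH1 and CDH1 were named after their values were seen. Gene positions are from GENCODE on GRCh38. Figures used matplotlib 3.10.9 (Python 3.11.15).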

Additional observations from a re-analysis of the deposited data

How the results depend on the processing

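Of 427 values recomputed under the alternatives, 373 kept their direction and side of the threshold (or, for counts and values without a test, stayed within the tolerance), 20 passed the threshold only under the alternative, 15 counts moved and 19 changed direction. The cause was not tested. For the double knockdown against another group, leaving out the replicate 1 libraries is the same fit as leaving out replicate 1 of that group. Such fits stand under both names in the totals above and in the counts below. Against a count of 0 members past the threshold in every comparison, siNELFA against siControl gave 2 with the replicate block, 1 with DESeq2, 1 with all 12 libraries in one fit and 1 without replicate 1 of siControl, siNELFA and siYAP. Of all genes, 5.21%, 0.0728%, 0.0432% and 0.0996% passed in these settings in turn. The double knockdown against siControl gave 1 without these replicate 1 libraries (24.4% of all genes) and 0 to 1 leaving out single libraries (0% to 24.4%). Against siNELFA it gave 1 with DESeq2 (0.286% of all genes), 1 with genes of at least 1 count (0.081%), 2 without the replicate 1 libraries (1.25%) and 0 to 2 leaving out single libraries (0.00546% to 1.25%). Against siYAP it gave 1 with DESeq2 (3.32% of all genes), 1 with genes of at least 1 count (0.695%), 1 with all 12 libraries (0.0378%), 2 without the replicate 1 libraries (16.5%) and 0 to 2 leaving out single libraries (0% to 16.5%). 

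The log2 fold change of CTGF in siNELFA against siControl passed at 1.29 with the replicate block (adjusted p = 7.14e-05), 1.30 with DESeq2 (8.09e-05), 1.29 with all 12 libraries (0.0151) and 1.30 without the replicate 1 libraries (0.0107), and that of CYR61 at 0.87 with the block. CTGF in the double knockdown passed against siControl at 0.22 without siControl replicate 1 (single libraries left out, 0.22 to 0.37). Against siNELFA it passed at -0.99 with DESeq2 (9.14e-06), -0.99 with genes of at least 1 count (0.00563) and -1.07 without siNELFA replicate 1 (-1.07 to -0.86). Against siYAP it passed at 1.19 with DESeq2 (1.36e-07), 1.21 with genes of at least 1 count (0.000872), 1.19 with all 12 libraries (0.0321) and 1.07 without siYAP replicate 1 (1.07 to 1.33). CYR61 passed against siNELFA at -0.54 without siNELFA replicate 1 (-1.06 to -0.54) and against siYAP at 0.70 without siYAP replicate 1 (0.38 to 0.70).

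Directions changed as follows, none past the threshold. CYR61 in the double knockdown against siControl was -0.10 on log2(TPM + 1) and -0.10 on log2(TPM + 0.1), scales on which the median of all genes shifted by -0.14 and -0.15. The CTGF departure from additivity was 0.084 and 0.095 on these scales, where the median shifted by 0.13 and 0.15, 0.038 without siNELFA replicate 3 and 0.041 without siYAP replicate 2 (-0.22 to 0.041). The CYR61 departure was 0.029 without the replicate 1 libraries. NOV was -0.050 without siControl replicate 1 and -0.14 without siYAP replicate 3 in siYAP (-0.14 to 0.39), and -0.073 in the double knockdown without siControl replicate 1 or without the replicate 1 libraries (-0.073 to 0.37). Against siYAP, NOV in the double knockdown was 0.016 with the replicate block, 0.044 and 0.070 on the TPM scales, and -0.23 to 0.30 leaving out single libraries (0.30 without siYAP replicate 3, 0.12 and 0.0034 without double knockdown replicates 2 and 3). WISP2 in siNELFA was -2.31 without siNELFA replicate 1 (-2.31 to 5.47). The ratio of CTGF to CYR61 in the double knockdown against siNELFA was 0.011 without siNELFA replicate 3 (-0.52 to 0.011).

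In the comparisons among siControl, siNELFA and siYAP, the replicate block changed no other call of a member. Pairing by these numbers beyond the replicate 1 offset was not tested. With the block, which shares only a number with the double knockdown, 0 members passed there and the all-gene count against siControl went from 75 to 2, with 727 genes unadjusted in the additivity test against 326. Counts of all genes past the threshold moved by far more than 1.5 times in several settings. In siNELFA against siControl, 1 gene passed, 924 with the block and 17 with DESeq2. For the double knockdown against siControl, 75 passed, 935 with DESeq2 and 4531 without siControl replicate 1. Against siYAP 6 passed, 504 with DESeq2 and 2937 without siYAP replicate 1. The TPM table scales shift the median of all genes by -0.19 and -0.22 in siNELFA. The planned recalculation of levels from FPKM was not run.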
